A study of Mus musculus with 30 samples.

Results

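Smooth muscle contractile genes encode the actin filament, the myosin motor and the proteins that coat, crosslink and anchor them in smooth muscle cells, and fibroblasts that switch the same genes on are called myofibroblasts. The 10 genes followed here were Acta2, Actg2, Tagln, Myl9, Cnn1, Tpm2, Des, Myh11, Cald1 and Lmod1, found by Ensembl identifier among the 50764 gene models of the deposited count tables. All 10 passed the low count filter of every fit. They were described in 30 mouse RNA libraries in 10 groups of 3, made from 2 sorted cell types. One cell type carried podoplanin (PDPN+), a surface glycoprotein of fibroblastic and mesothelial cells, and the other F4/80, the macrophage surface receptor encoded by Adgre1.

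In 4 groups the cells were PDPN+ cells kept in vitro with BMS493 at 1 µM, in co-culture with macrophages, across a transwell from them, or alone. The other 6 were macrophages kept in vitro with all-trans retinoic acid (ATRA) at 1 µM, with BMS493 at 1 µM, in co-culture with PDPN+ cells, across a transwell, or alone, and macrophages taken ex vivo without culture. ATRA is the natural ligand of the retinoic acid receptors, BMS493 is an inverse agonist that holds those receptors in their repressing state, and a transwell is a porous membrane that passes soluble factors but keeps the 2 cell types apart. Whether PDPN+ cells and macrophages were together under BMS493 is not given in the labels, nor are genotype, strain and age, and nothing says whether the replicates came from separate animals or cultures, so p-values measure the spread between these samples, which may be technical. The replicate numbers follow 3 labelled processing batches, mbb336, mbb339 and mbb340, and values of 3 libraries are given in that batch order throughout.

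Each library held 29350158 to 54099085 assigned counts over 22152 to 26345 gene models. The labels give 2148 to 25000 sorted cells and RNA integrity numbers of 9.2 to 10, and the co-cultured PDPN+ libraries of batches mbb339 and mbb340 came from 3730 and 2148 cells, the fewest in the study. In batch mbb336 the source names of both co-culture libraries carry the other cell type, while the titles and group labels name the cell type used here. Adgre1 was at 38.5 to 62.5 CPM (counts scaled to library size) in the co-cultured PDPN+ libraries and at 2699 to 3513 CPM in the co-cultured macrophages, as the titles have it. In the PDPN+ libraries the fibroblast marker Col1a1 was at 726 to 14773 CPM and Pdpn itself at 91.3 to 215 CPM. Pdpn was not specific to those libraries, since the cultured macrophages of batch mbb340 had 130 CPM with ATRA, 683 with BMS493, 329 in co-culture, 278 with transwell and 223 alone, and the ex vivo macrophages 0.188 CPM or less.

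The contractile programme of smooth muscle is switched on by serum response factor (SRF), which binds a short A and T rich element called the CArG box together with the coactivators of the myocardin family. In fibroblasts the same genes respond to TGF-beta and to mechanical load, through SRF with the myocardin-related factors and through TEAD factors with YAP. Acta2 is the usual marker of the myofibroblast state, while Myh11 and Lmod1 are tied more closely to differentiated smooth muscle.

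By their locus in GRCm38, with the GENCODE vM21 gene models that the identifiers matched, Acta2 lies at chr19:34241090-34255590 on the minus strand, Actg2 at chr6:83512905-83536265 on the minus strand and Myh11 at chr16:14194535-14291372 on the minus strand. Tagln lies at chr9:45929619-45936058 and Tpm2 at chr4:43514711-43523765, both on the minus strand. Myl9 at chr2:156775420-156781658, Cnn1 at chr9:22099216-22109630, Des at chr1:75360329-75368579, Cald1 at chr6:34598500-34775473 and Lmod1 at chr1:135324807-135368065 are on the plus strand. The counts cover whole gene models. Tagln, Des, Cald1 and Lmod1 overlap annotated genes on the opposite strand (Pcsk7 and Gm48529, Gm15179, Npn2 with Gm13861 and Gm14547, and Gm22796), and no source used here says whether the counting used strand, so reads of overlapping pairs may not be told apart. Of all 50-base windows of its transcripts, Acta2 shared 0.326% with the other actins listed, all with Actg1, and Myh11 shared 0.391% with Myh9. The other 8 members shared none with the relatives searched.

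RefSeq promoters on GRCm38.p6, taken here as the 250 bases before the annotated start, were matched for 7 of the 10 members, and Actg2, Tagln and Myh11 are named only. A CArG box, searched on both strands, was found without mismatch in 1 of 8 promoters of these 7 genes and in 1.47% of all 32851 promoters in the table. Allowing 1 base off, 4 of the 8 held a box, against 18.6% of all promoters. The TEAD-type letters CATTCC, searched on both strands and not overlapping the boxes, were in 3 of the 8, against 12.6% of all. These shares describe letters in a window and not binding. The 3 promoters with a pair of boxes are shown, in the direction of transcription. Their genes varied together with the rest of the group over the PDPN+ libraries. So did Cnn1 (correlation 0.945 with the mean of the other members), whose promoter held no box, exact or 1 base off. Capitals mark CArG boxes, exact or 1 base off. Acta2 (chr19:34255374-34255623, minus strand) has them starting 84 and 34 bases before the start, and CATTCC at -146. Myl9 (chr2:156775214-156775463, plus strand) has the exact box at -161 and one with 1 base off at -99. Lmod1 (chr1:135324563-135324812, plus strand) has them at -189 and -164, and CATTCC at -130.
Acta2: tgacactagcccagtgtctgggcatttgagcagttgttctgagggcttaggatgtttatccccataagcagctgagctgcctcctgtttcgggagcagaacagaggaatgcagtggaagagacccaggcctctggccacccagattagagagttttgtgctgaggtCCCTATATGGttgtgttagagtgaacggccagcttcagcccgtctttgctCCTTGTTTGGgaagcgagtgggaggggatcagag
Myl9: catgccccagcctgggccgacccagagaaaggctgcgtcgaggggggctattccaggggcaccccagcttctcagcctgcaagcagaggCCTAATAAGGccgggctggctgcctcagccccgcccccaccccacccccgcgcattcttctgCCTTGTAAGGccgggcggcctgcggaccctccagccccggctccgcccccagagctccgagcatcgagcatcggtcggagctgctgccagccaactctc
Lmod1: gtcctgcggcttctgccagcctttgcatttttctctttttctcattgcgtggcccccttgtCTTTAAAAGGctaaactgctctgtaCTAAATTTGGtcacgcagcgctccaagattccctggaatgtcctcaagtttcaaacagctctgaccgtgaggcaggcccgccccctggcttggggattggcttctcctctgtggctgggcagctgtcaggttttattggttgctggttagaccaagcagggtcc

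The 10 genes differed in level between the 2 sorted cell types. In cells cultured alone, all 10 were higher in PDPN+ cells than in macrophages (10 of 10, with 22.3% of 20987 genes called higher by edgeR's quasi-likelihood test at an adjusted p under 0.05). The median log2 fold change of the 10 was 8.78, against 0.08 over all genes tested. Acta2, the smooth muscle actin, had 1687, 1931 and 2227 CPM in PDPN+ cells alone, against 7.11, 6.2 and 6.66 CPM in macrophages alone (log2 fold change 8.16, SE 0.587, adjusted p = 4.43e-10). Myl9, the regulatory light chain of myosin, had 460, 442 and 745 CPM in PDPN+ cells, against 0.52, 0.152 and 0.22 CPM in macrophages (log2 fold change 10.84, SE 0.884, adjusted p = 2.57e-09). Myh11, the smooth muscle myosin heavy chain, had 4110 counts in the PDPN+ libraries and 0 in the macrophage libraries, at least 1007-fold higher with a floor of 3 counts over the group. Cald1 (caldesmon, an actin and myosin binding regulator that also has non-muscle isoforms) differed least, with 688 ± 55.8 CPM in PDPN+ cells and 127 ± 78.1 CPM in macrophages (SD, n = 3 each, log2 fold change 2.40, SE 0.548, adjusted p = 0.00123).

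Over every culture, 9 of the 10 genes had each of the 12 PDPN+ libraries above each of the 18 macrophage libraries. Myh11 was the exception, since its lowest PDPN+ library was at 7.88 CPM (transwell) and its highest macrophage library at 8.64 CPM (co-culture). All 10 genes had their highest group mean in co-cultured PDPN+ cells, and for each gene the ranges of neighbouring PDPN+ groups in the order of means overlapped. For Acta2 the order of means was 4095 CPM in co-culture, 3483 with BMS493, 1981 with transwell and 1948 alone among PDPN+ groups, and then 185 CPM in BMS493 macrophages, 141 in co-cultured, 8.33 with ATRA, 6.66 alone, 5.22 with transwell and 1.17 ex vivo. In that order the ranges were separate between PDPN+ cells alone and BMS493 macrophages, between co-cultured and ATRA macrophages, and between transwell and ex vivo macrophages, and overlapped between all other neighbours.

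**Figure D1:**
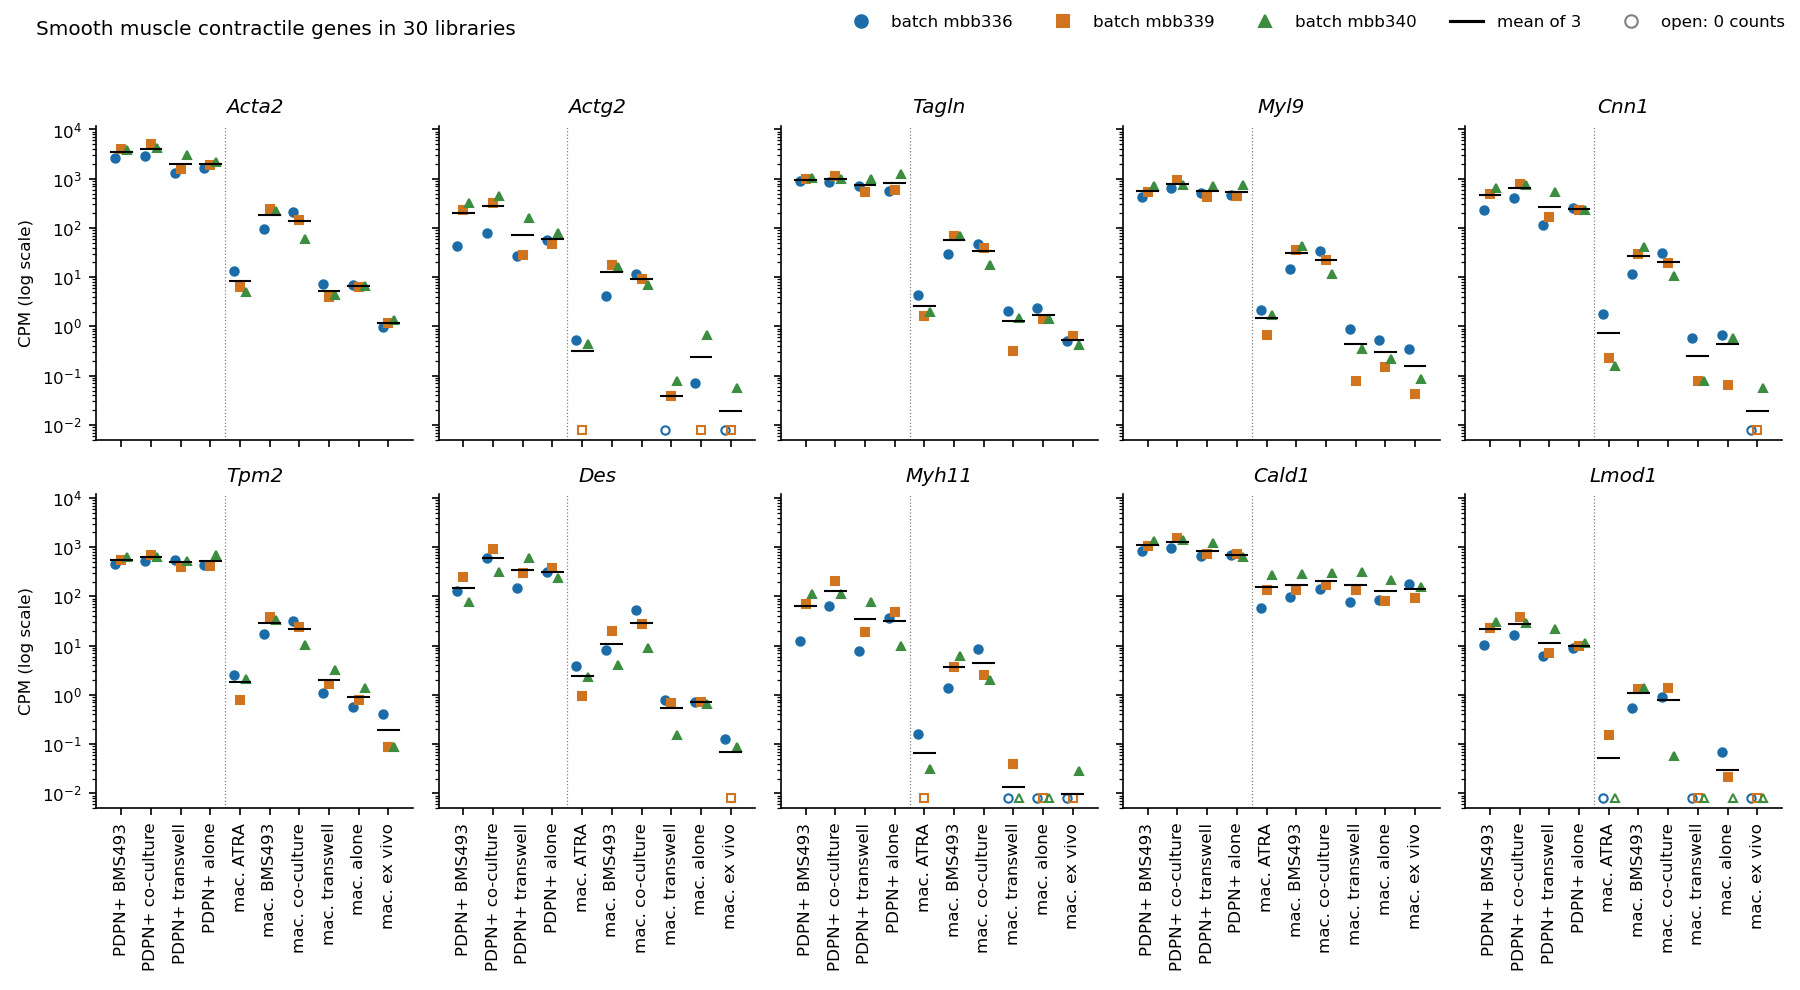
Levels of the 10 genes in CPM on a log axis, 1 point for each library with the batch by shape and colour, the black bar at the mean of 3, and open markers at the bottom for libraries with 0 counts. PDPN+ groups stand left of the dotted line and macrophage groups right of it, and in macrophages the means of the BMS493 and co-culture groups stand above those of the other 4 for every gene except Cald1.

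Levels between genes were compared per length, on the authors' normalised RPKM (nRPKM, reads scaled to gene length and library size and adjusted by size factors). In PDPN+ cells alone Acta2 led with 1116 ± 197 nRPKM, followed by Tagln with 519 ± 267, Myl9 with 498 ± 173 and Tpm2 with 224 ± 76.6 (SD, n = 3). The smooth muscle heavy chain Myh11 was at 4.82 ± 3 nRPKM and Lmod1 at 2.59 ± 0.431, the lowest of the 10. In macrophages alone Cald1 led instead, with 25.3 ± 15.1 nRPKM, ahead of Acta2 with 3.82 ± 0.262. Markers of pericytes and mural cells, a list of 10, summed to 52.6 to 327 CPM over the PDPN+ libraries, with Pdgfrb at 35.6 to 295 CPM and Rgs5 at 1.67 CPM or less, and Higd1b was at 0 in the BMS493 and transwell groups. Skeletal and cardiac muscle markers, a list of 12 that includes 2 further muscle actins, summed to 6.98 to 33.9 CPM, with Myh7 at 0 in all PDPN+ groups. Myocd, which encodes myocardin, the smooth muscle coactivator of SRF, was at 0.591 CPM or less in every PDPN+ library.

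The mixture of actins differed between the cell types and, among PDPN+ cells, between cultures. Of the summed nRPKM of 6 actin genes, Acta2 held 46.6%, 44.8% and 44.8% in PDPN+ cells with BMS493 and 45.8%, 50.7% and 41.7% in co-culture, against 32.8%, 33.6% and 39.1% with transwell and 38.4%, 38% and 39.3% alone. Every BMS493 and co-culture library was above every transwell and alone library. No test was made of these shares. Actg2, the enteric smooth muscle actin, stood at 3.54%, 8.26% and 13.6% of the Acta2 level in co-culture, against 4.4%, 3.15% and 4.61% alone, so batch mbb336 did not follow the other 2. In macrophages the cytoplasmic actins Actb and Actg1 made up nearly all of the sum, and the Acta2 share was 3.09%, 6.17% and 5.52% with BMS493 and 6.33%, 3.71% and 1.23% in co-culture, against 0.499%, 0.337% and 0.189% alone.

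**Figure D2:**
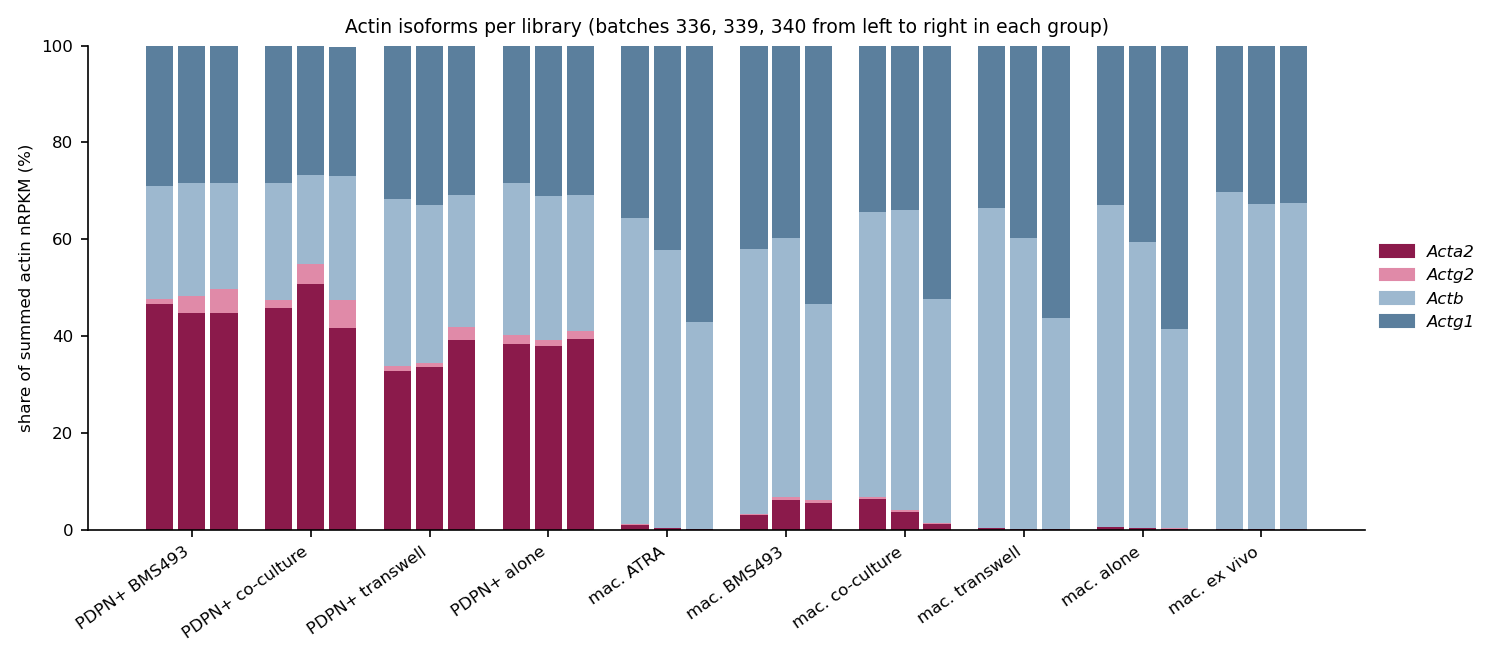
Share of the summed actin nRPKM (percent, vertical axis) held by Acta2, Actg2, Actb and Actg1 in each of the 30 libraries, grouped by cell type and culture. Acta1 and Actc1 were counted in the sum and are too small to be seen, and the Acta2 segment spans 41.7% to 50.7% in BMS493 and co-cultured PDPN+ libraries, above the 32.8% to 39.3% of transwell and alone libraries.

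The first comparison set PDPN+ cells in co-culture with macrophages against PDPN+ cells alone, where contact and soluble factors change together. All 10 genes had positive fold changes in co-culture over culture alone, with a median log2 fold change of 1.01 against 0 over all genes, and 6 of them, Acta2, Actg2, Cnn1, Myh11, Cald1 and Lmod1, had all 3 co-culture libraries above all 3 alone libraries (10.1% of all genes did). None of the 10 passed the adjusted threshold, and neither did any other gene (0% of 19134 genes called in either direction). At an unadjusted p under 0.05 there were 6 members and 1796 genes, and DESeq2's Wald test called 347 genes at its adjusted threshold, none of them members.

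The actins and their nucleator were higher in every co-culture library. Acta2 had 2930, 5128 and 4225 CPM in co-cultured PDPN+ cells, against 1687, 1931 and 2227 CPM alone (log2 fold change 1.06, SE 0.368, adjusted p = 0.504), and the groups did not overlap. Actg2 had 79.6, 325 and 439 CPM in co-culture, against 56.9, 46.6 and 78.8 CPM alone (log2 fold change 2.19, SE 0.873, adjusted p = 0.525), where the batch mbb336 co-culture library exceeded the highest alone library by less than 1 CPM. Lmod1, leiomodin 1, which nucleates actin filaments in smooth muscle, had 16.3, 37.5 and 28.7 CPM in co-culture, against 8.8, 9.95 and 11.4 CPM alone (log2 fold change 1.44, SE 0.532, adjusted p = 0.517). Within batches mbb336, mbb339 and mbb340, the ratio of co-culture to alone was 1.74, 2.66 and 1.9 for Acta2, 1.4, 6.97 and 5.58 for Actg2, and 1.86, 3.77 and 2.52 for Lmod1.

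The regulators of the filament were split. Cnn1, calponin 1, which binds actin and slows the myosin ATPase, had 399, 789 and 763 CPM in co-culture, against 253, 233 and 228 CPM alone, without overlap (log2 fold change 1.45, SE 0.554, adjusted p = 0.525). Cald1 had 965, 1529 and 1410 CPM in co-culture, against 702, 736 and 627 CPM alone, again without overlap (log2 fold change 0.92, SE 0.307, adjusted p = 0.49). Tagln, which encodes the actin crosslinker SM22-alpha, had 870, 1114 and 981 CPM in co-culture, against 569, 596 and 1248 CPM alone, and Tpm2, a tropomyosin that coats the filament, had 528, 709 and 643 CPM, against 440, 420 and 704 CPM. For both of these the batch mbb340 library alone was the highest of the control group and within or above the co-culture range, and their log2 fold changes were 0.27 and 0.25 (adjusted p = 0.783 and 0.76).

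The motor subunits and desmin varied more between libraries. Myl9 had 661, 932 and 744 CPM in co-culture, against 460, 442 and 745 CPM alone, with overlap (log2 fold change 0.48, adjusted p = 0.587). Myh11 had 64.9, 204 and 113 CPM in co-culture, against 36.7, 49 and 9.87 CPM alone (log2 fold change 2.02, SE 0.918, adjusted p = 0.525). Des, the intermediate filament protein of muscle, had 592, 912 and 312 CPM in co-culture, against 315, 382 and 236 CPM alone, with overlap (log2 fold change 0.96, adjusted p = 0.546). In all, 7 genes had a higher co-culture library within each of the 3 batches, and Tagln, Myl9 and Tpm2 had ratios of 0.786, 0.998 and 0.913 in batch mbb340.

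The values depend on the 2 co-culture libraries with the fewest cells. Without them, and with batch mbb336 as the only co-culture library and assumed to vary like the other groups, the log2 fold changes over alone were 0.61 for Acta2, 0.41 for Actg2, 0.77 for Cnn1, 1.05 for Myh11, 0.51 for Cald1 and 0.72 for Lmod1, each with an adjusted p of 1. Other cell type markers moved beside the contractile genes. The 12 mesothelial markers summed to 1340, 208 and 37.8 CPM in co-culture, against 3348, 2613 and 2067 CPM alone, and the 16 fibroblast markers to 46609, 51251 and 20784 CPM, against 25783, 27440 and 9194 CPM. The 17 macrophage markers summed to 2563, 2389 and 1782 CPM in the co-cultured PDPN+ libraries, against 156, 95.8 and 101 CPM alone, and no marker of these 3 lists was at 0 in all libraries of either group. The part of these in the contractile values was not tested. In bulk libraries, fewer cells of a type and less RNA per cell cannot be told apart.

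The transwell comparison addressed soluble factors without contact. No member was called in transwell over alone (0% of genes called in either direction), none reached an unadjusted p under 0.05, against 426 of all genes, and the median log2 fold change was 0.17, against 0.01 over all genes. Acta2 had 1295, 1566 and 3083 CPM with transwell, against 1687, 1931 and 2227 CPM alone, so the groups overlapped completely (log2 fold change 0.05, SE 0.364, adjusted p = 1). Batch mbb340 was the highest transwell library for 9 of the 10 genes, with Tpm2 highest in batch mbb336. In co-culture over transwell no member was called (0.00523% of genes called in either direction). At an unadjusted p under 0.05 there were 4 members, against 966 of all genes, and the median was 0.89, against -0.02 over all genes. None of the 10 had all co-culture libraries above all transwell libraries, as 7.01% of all genes did. Acta2 had a log2 fold change of 1.01 (adjusted p = 0.805) and Actg2 of 1.93. Both comparisons share libraries with co-culture over alone.

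Under BMS493 all 10 fold changes over co-culture were below 0 in the main fit, and that of Des was the largest in size. Only Myl9, Des and Myh11 kept that sign under every setting tried. Within batches mbb336, mbb339 and mbb340 the ratio was 1.01, 0.899 and 1.03 for Tagln, and 0.618, 0.622 and 1.08 for Lmod1. The comparison shares its co-culture libraries with co-culture over alone, where all 10 fold changes were positive. No member was called in BMS493 over co-culture (0.0157% of genes called in either direction), and the median log2 fold change was -0.43, against 0.01 over all genes. Des had 129, 246 and 77.9 CPM in PDPN+ cells with BMS493, against 592, 912 and 312 CPM in co-culture, with every BMS493 library below every co-culture library (log2 fold change -2.00, SE 0.578, unadjusted p = 0.00507, adjusted p = 0.785). It was the only member to separate this way, as 5.01% of all genes did, and its ratio within batches mbb336, mbb339 and mbb340 was 0.217, 0.27 and 0.25. With DESeq2's Wald test its adjusted p was 0.111. Against culture alone, Des was also lower with BMS493 in each batch, at ratios of 0.408, 0.644 and 0.33, while the log2 fold change of -1.04 had an adjusted p of 0.514.

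Acta2, in contrast, had 2683, 3926 and 3839 CPM with BMS493, against 1687, 1931 and 2227 CPM alone, without overlap (log2 fold change 0.81, SE 0.367, adjusted p = 0.462). Cald1, with 839, 1052 and 1365 CPM, against 702, 736 and 627 CPM, was the other member without overlap, where 9.45% of all genes had all replicates above. No member was called in BMS493 over alone (0.24% of genes called in either direction), and the median was 0.72, against -0.03 over all genes. Actg2 had 43.6, 237 and 322 CPM, Cnn1 229, 492 and 662 CPM, Myh11 12.7, 70.4 and 112 CPM and Lmod1 10.1, 23.3 and 30.9 CPM with BMS493, and for each the batch mbb336 library was the lowest of the 3. Against the alone library of the same batch, the batch mbb336 ratio was 0.767 for Actg2, 0.907 for Cnn1 and 0.348 for Myh11, and for these 3 genes the ratios in the other batches were above 1. Macrophage markers summed to 1753, 4076 and 2812 CPM in the PDPN+ libraries with BMS493, against 156, 95.8 and 101 CPM alone, and 3 of the 17 rose, namely Itgam (log2 fold change 6.55), Lyz2 (5.56) and Adgre1 (5.42). Their part in the contractile values was not tested.

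Desmin also stood apart within the group. Over the 12 PDPN+ libraries, the correlation of log2(CPM + 1) with the mean of the other members was 0.262 for Des, and 0.695 (Tagln) to 0.973 (Lmod1) for the other 9. After removing the group means it was 0.287 for Des and 0.563 to 0.985 for the others, as a description over libraries that share groups and batches. Acta2 was at 0.926 and Myl9 at 0.842 in the first measure. Among 8591 other genes with a mean of at least 10 CPM, the 8 most like the mean of the members by Pearson correlation over the same 12 libraries were Pdlim7 (0.929), Actg1 (0.929), Nexn (0.928), Bag2 (0.923), Hhipl1 (0.921), Lsp1 (0.909), Ckb (0.908) and Kif5b (0.907). Pdlim7 and Nexn encode proteins bound to actin filaments, and Actg1 a cytoplasmic actin. Actg1 averaged 2640 CPM in co-culture and 1670 CPM alone, with a log2 fold change of 0.65 and an adjusted p of 0.526.

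Genes around the contractile apparatus were taken from lists. Of 38 other actomyosin and smooth muscle apparatus genes, 36 were tested in PDPN+ cells, none was called in co-culture over alone, and the median log2 fold change was 0.54. Of 26 SRF and myocardin-family regulators all were tested, none was called, and the median was 0.34. Of 34 TGF-beta and myofibroblast response genes all were tested, none was called, 31 had positive values, and the median was 0.99. None of the 3 lists had a called gene in the other PDPN+ comparisons either, and their medians in BMS493 over alone were 0.39, 0.23 and 1.02. Ccn2, a secreted matricellular target of TGF-beta and YAP, averaged 1480 ± 1050 CPM in co-culture and 360 ± 156 CPM alone (SD, n = 3 each, log2 fold change 2.05, adjusted p = 0.515), and Srf itself 20.4 ± 8.46 and 17.7 ± 3.55 CPM (log2 fold change 0.19, adjusted p = 0.873). Ccn2 and Srf were singled out after their values were seen.

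**Figure D3:**
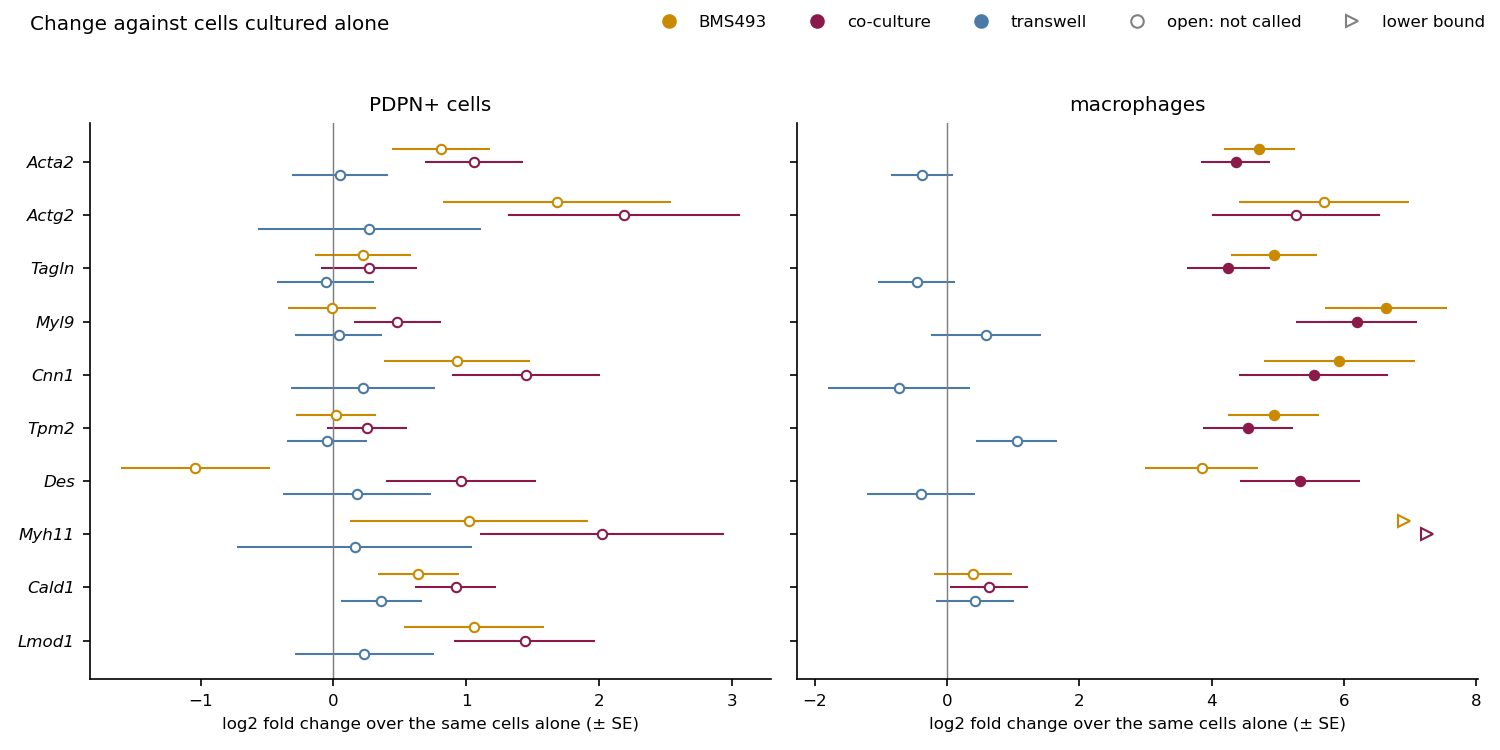
Log2 fold change ± SE of each gene over the same cells cultured alone, for BMS493, co-culture and transwell, in PDPN+ cells (left) and macrophages (right), with filled points called at an adjusted p under 0.05. Genes with 3 counts or fewer in a group are left out, apart from Myh11 in macrophages, drawn as lower bounds with triangles, and no PDPN+ point is filled, while beside the Myh11 bounds 6 co-culture points and 5 BMS493 points are filled in macrophages.

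The same genes were then followed in the macrophage libraries, a cell type that is not known for a smooth muscle programme. In co-culture over alone 7 of 10 genes rose (0.63% of 17774 genes called higher), the median log2 fold change was 4.91, against -0.03 over all genes, and 8 genes had every co-culture library above every alone library (8.28% of all genes). Acta2 rose to 216, 146 and 60.9 CPM in co-cultured macrophages, against 7.11, 6.2 and 6.66 CPM alone (log2 fold change 4.36, SE 0.526, adjusted p = 0.00258). The lowest co-culture library was thus 9.14 times the alone library of its batch, and the ratios in batches mbb336 and mbb339 were 30.4 and 23.6.

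The crosslinker, the coat and the light chain rose with it. Tagln rose to 47.7, 38.3 and 17.3 CPM in co-culture, against 2.36, 1.43 and 1.43 CPM alone (log2 fold change 4.25, adjusted p = 0.00908). Tpm2 rose to 31.1, 24.4 and 10.5 CPM, against 0.555, 0.804 and 1.39 CPM (log2 fold change 4.55, adjusted p = 0.00908). Myl9 rose to 33.3, 22 and 11.7 CPM, against 0.52, 0.152 and 0.22 CPM (log2 fold change 6.19, adjusted p = 0.00908). In each of these genes batch mbb336 was the highest and batch mbb340 the lowest of the co-culture libraries.

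Des and Cnn1 passed the threshold as well, though less firmly. Of 12 alternative settings of the fit, Des was called in 7 and Cnn1 in 6, against 11 for Acta2 and 10 for Tagln. Des rose to 52.3, 27 and 8.9 CPM in co-culture, against 0.728, 0.717 and 0.659 CPM alone (log2 fold change 5.33, adjusted p = 0.0141), and Cnn1 to 31.3, 19.3 and 10.8 CPM, against 0.659, 0.0652 and 0.586 CPM (log2 fold change 5.54, adjusted p = 0.0317). Myh11 rose to 8.64, 2.5 and 1.97 CPM, 417 counts in all, against 0 counts alone, at least 154-fold higher with the floor of 3 counts over the group (adjusted p = 0.0129). Actg2 had 11.6, 9.18 and 6.79 CPM in co-culture, against 0.0694, 0 and 0.659 CPM alone, and missed the threshold (log2 fold change 5.28, adjusted p = 0.0696), but passed it with the replicate block by batch (adjusted p = 0.0218). Lmod1 had 66 counts in co-culture and 3 alone, a ratio of 24.3 with a counting interval of 7.97 to 121 (95%, counting error only, adjusted p = 0.214), and its batch mbb340 library was at 0.0587 CPM.

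Cald1 behaved differently. It had 142, 169 and 294 CPM in co-cultured macrophages, against 83.4, 81 and 217 CPM alone, with overlap (log2 fold change 0.63, adjusted p = 0.704). Macrophages expressed it in every culture, at 59.3, 134 and 266 CPM with ATRA, 98, 134 and 287 CPM with BMS493, 78.3, 132 and 310 CPM with transwell and 175, 91.6 and 158 CPM ex vivo. In all 5 cultures batch mbb340 held the highest value, while ex vivo it did not. Cald1 was not called in any comparison among macrophages.

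The calls in macrophage co-culture over alone rested partly on 1 control library. Without macrophage alone replicate 2 a single member, Acta2, remained called (adjusted p = 0.0409), and in a fit of these 2 groups alone none did, where 1 gene in all was called. The fold changes moved little in the first case, to 4.34 for Acta2 and 5.38 for Des.

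Contractile transcripts also rose in BMS493 macrophages. In BMS493 over alone 6 of 10 genes rose (0.551% of genes called higher), the median log2 fold change was 4.94, against -0.03 over all genes, and 9 genes had all replicates above (9.28% of all genes). Acta2 rose to 95.9, 239 and 220 CPM with BMS493, against 7.11, 6.2 and 6.66 CPM alone (log2 fold change 4.72, adjusted p = 0.00118). Tagln rose to 29.8, 70.1 and 69.9 CPM (4.94, adjusted p = 0.00602), Myl9 to 14.6, 35.3 and 43.8 CPM (6.64, adjusted p = 0.00646), Tpm2 to 17.6, 37.9 and 33.1 CPM (4.94, adjusted p = 0.00646) and Cnn1 to 11.5, 29.3 and 41.3 CPM (5.93, adjusted p = 0.0261). Here batch mbb336 was the lowest of the 3, the reverse of co-culture. Myh11 rose to 1.38, 3.6 and 6.2 CPM, at least 120-fold higher (adjusted p = 0.0127). Des, with 8.26, 20.2 and 4.12 CPM, had an adjusted p of 0.0539, Actg2, with 4.22, 17.5 and 16 CPM, one of 0.0587, and Lmod1, with 89 counts against 3, one of 0.166. With the replicate block by batch, Des and Actg2 passed the threshold (adjusted p = 0.019 each). Without macrophage alone replicate 2 the count of called members was 2 in place of 6.

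As a log2 fold change, the change in culture was larger in macrophages than in PDPN+ cells for several members. The difference itself was tested in a fit of all 30 libraries, a test chosen after seeing the data. The starting levels were far lower in macrophages. Mean Acta2 was 6.66 CPM alone and 141 in co-culture in macrophages, against 1948 and 4095 CPM in PDPN+ cells. Summed fibroblast markers were also higher in co-cultured macrophages, as given below, and their part was not tested. For co-culture over alone the difference was called for 5 of 10 (0.481% of genes called higher), namely Acta2, Tagln, Myl9, Tpm2 and Des, and for BMS493 over alone for 7 (1.09% of genes), namely those 5, Cnn1 and Myh11. The difference for Acta2 was 3.32 and 3.95 on the log2 scale (adjusted p = 0.00676 and 0.000927).

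In BMS493 over co-culture no member was called in macrophages (0.85% of genes called in either direction), none was under an unadjusted p of 0.05, against 1565 of all genes, and the median was 0.39. For Acta2 the ratio of BMS493 to co-culture was 0.443, 1.64 and 3.61 in batches mbb336, mbb339 and mbb340, so the direction differed by batch. Des was lower with BMS493 in every batch, at 0.158, 0.749 and 0.463, as it was in PDPN+ cells, with a log2 fold change of -1.48 and an adjusted p of 0.636.

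Across a transwell no such rise was called. In macrophage transwell over alone no member was called (0.0281% of genes called in either direction), none was under an unadjusted p of 0.05, against 1700 of all genes, and Acta2 had 7.38, 3.91 and 4.37 CPM with transwell, against 7.11, 6.2 and 6.66 CPM alone. In co-culture over transwell 4 members rose (0.0394% of genes called higher, 7 genes in all), namely Acta2 (log2 fold change 4.74, adjusted p = 0.00461), Tagln (4.71, adjusted p = 0.0165), Myl9 (5.60, adjusted p = 0.0366) and Des (5.73, adjusted p = 0.0484). The count depended on the fit in both directions. It was 7 with the replicate block (labelled batch), 9 with DESeq2's Wald test, 7 without the low count filter and 1 without batch mbb340. With 1 library left out it was 0 without macrophage transwell replicate 2 or 3, 1 without transwell replicate 1 or co-culture replicate 1, 2 without co-culture replicate 2, and 5 without co-culture replicate 3. Over the fits with 1 library left out, 0 to 14 genes in all were called. For the other settings the counts over all genes are not given here, so those member counts are not set against other genes. In ATRA over alone no member was called (0.326% of genes called in either direction), and 3 were under an unadjusted p of 0.05, against 1350 of all genes. The median log2 fold change was 0.70, against -0.01 over all genes. All 10 were above 0, but Lmod1 rested on 4 counts against 3 and Myh11 on 6 against 0, too few to give a direction. Acta2 had 13.6, 6.38 and 4.98 CPM with ATRA, against 7.11, 6.2 and 6.66 CPM alone, with overlap. Myl9 had 2.16, 0.657 and 1.73 CPM with ATRA, against 0.52, 0.152 and 0.22 CPM alone (log2 fold change 2.34, adjusted p = 0.378). Des had 3.82, 0.928 and 2.35 CPM, against 0.728, 0.717 and 0.659 CPM (log2 fold change 1.73, adjusted p = 0.652).

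A small rise was also present in culture without PDPN+ cells. In macrophages alone over ex vivo 3 of 10 members rose, where 9.31% of 17774 genes were called higher. Acta2 averaged 6.66 ± 0.457 CPM alone and 1.17 ± 0.186 CPM ex vivo (SD, n = 3 each, log2 fold change 2.52, adjusted p = 0.00291). Tpm2 had 0.555, 0.804 and 1.39 CPM alone, against 0.407, 0.0868 and 0.0855 CPM ex vivo (log2 fold change 2.27, adjusted p = 0.0327), and Des had 0.728, 0.717 and 0.659 CPM, against 0.125, 0 and 0.0855 CPM (log2 fold change 3.37, adjusted p = 0.0285). The ex vivo values rest on 13, 4 and 3 counts for Tpm2 and 4, 0 and 3 for Des. Of 12 alternative settings, Tpm2 was called in 6, Des in 8 and Acta2 in 12. Fibroblast markers summed to 41.9, 12.8 and 135 CPM alone, against 13.5, 1.71 and 5.87 CPM ex vivo, and 2 of the 16 were called higher. The markers were unequal. As a percentage of PDPN+ cells alone of the same batch, Mmp2 stood at 9.99%, 3.95% and 76.5% in macrophages alone. The median of the 16 was 0.161%, 0.0365% and 0.0731%. Of the 38 other actomyosin genes 4 rose and 8 fell in this comparison, among them Actn1, which encodes an actin crosslinker (16.1 ± 5.81 CPM alone and 0.24 ± 0.183 CPM ex vivo, adjusted p = 7.45e-05), and Tln1, the integrin linker talin (235 ± 102 CPM alone and 1050 ± 286 CPM ex vivo, adjusted p = 0.000765). Without ex vivo replicate 2 or 3 a single contractile member stayed called.

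To set the macrophage values beside those of the stromal cells, each was taken as a percentage of the PDPN+ library of the same culture and batch. The median over the 10 members was 5.15%, 6.76% and 5.64% with BMS493 and 7.61%, 2.9% and 1.61% in co-culture, against 0.238%, 0.173% and 0.0486% with transwell and 0.246%, 0.19% and 0.227% alone. For Acta2 it was 3.58%, 6.1% and 5.73% with BMS493 and 7.39%, 2.85% and 1.44% in co-culture, against 0.421%, 0.321% and 0.299% alone. Without Cald1, the other 9 spanned 3.39% to 10.8%, 5.12% to 8.21% and 4.53% to 6.91% with BMS493. In co-culture they spanned 5.04% (Myl9) to 14.6% (Actg2), 1.23% (Myh11) to 3.6% (Lmod1) and 0.205% (Lmod1) to 2.85% (Des).

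The 16 fibroblast markers, none of them a contractile member, also had a higher median share with BMS493 and in co-culture. The share of Mmp2 went the other way in co-culture, at 5.25%, 2.57% and 6.49%, against 9.99%, 3.95% and 76.5% alone. Its level in co-cultured macrophages was still above that in macrophages alone in batches mbb336 and mbb339, and below it in batch mbb340. As a percentage of the co-cultured PDPN+ level, that excess was 2.29%, 1.05% and -6.41%. The median share of the 16 was 2.86%, 3.52% and 3.34% with BMS493 and 3.47%, 1.56% and 1.03% in co-culture. The order of batches was that of the contractile genes. From the batch means of each gene, the median of the 16 was 0.213% with transwell and 0.131% alone. Their summed level in macrophages was 1103, 850 and 1146 CPM with BMS493 and 1495, 580 and 345 CPM in co-culture, against 41.9, 12.8 and 135 CPM alone, and none of the 16 was at 0 in all libraries of these 3 groups. Of the 16, 7 rose in co-culture over alone and 7 in BMS493 over alone. Col1a1, a fibrillar collagen chain, rose to 293, 140 and 67.4 CPM in co-culture, against 7.8, 1.37 and 3.37 CPM alone (log2 fold change 5.27, adjusted p = 0.0335). Mesothelial markers summed to 31.2, 4.85 and 0.47 CPM in co-cultured macrophages, against 1.28, 0.0217 and 0.33 CPM alone, where 6 of the 12 were at 0 in all 3 libraries. Their part in the contractile values was not tested.

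Cald1 was again the exception in these shares. It stood at 11.7%, 12.8% and 21.1% of the PDPN+ level with BMS493, 14.7%, 11.1% and 20.8% in co-culture, 12.1%, 18.4% and 25.9% with transwell and 11.9%, 11% and 34.7% alone. It was thus at 11% or more in every culture, including those without PDPN+ cells in contact.

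**Figure D4:**
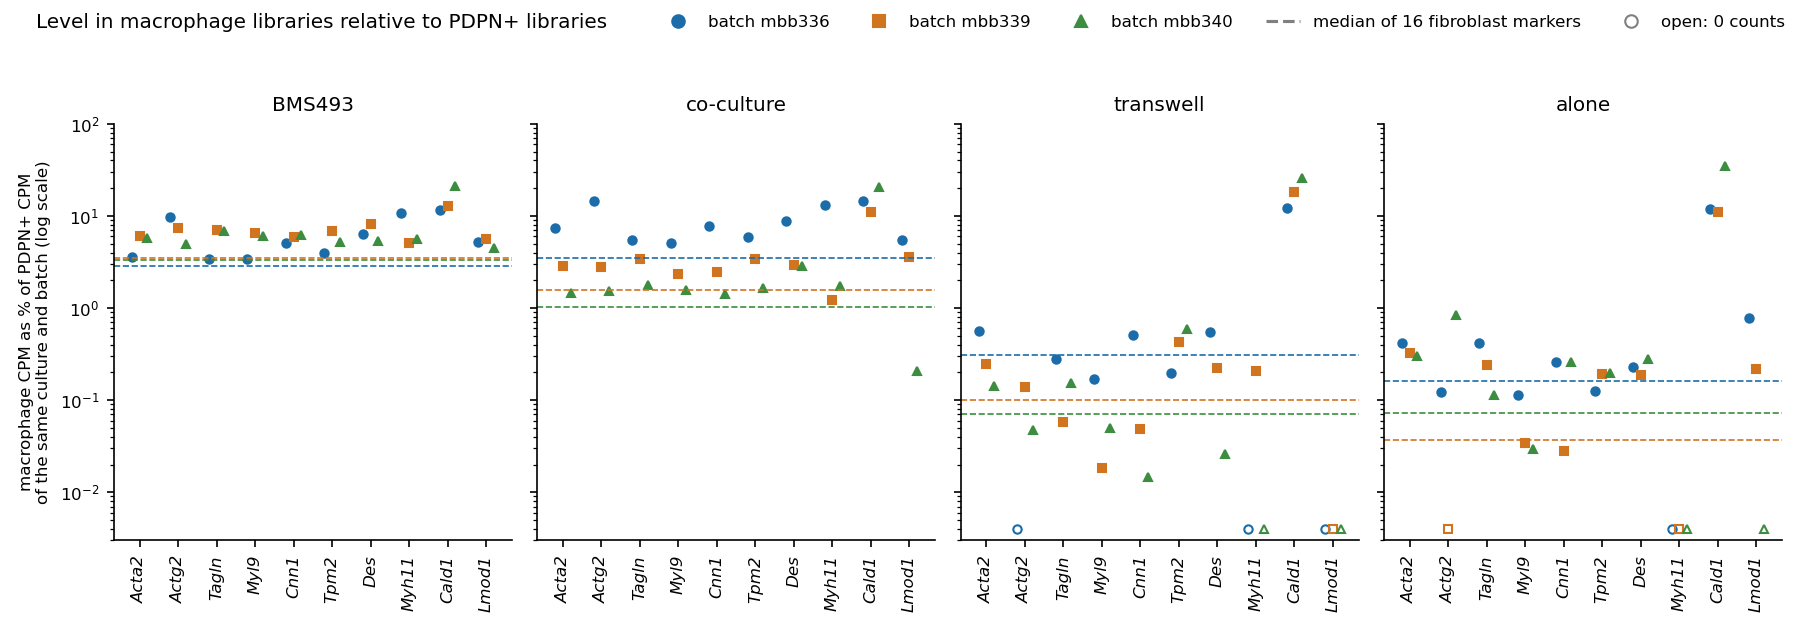
CPM in macrophages as a percentage of the CPM in PDPN+ cells of the same culture and batch (log axis), 1 point for each batch, in panels for BMS493, co-culture, transwell and alone, with open markers for 0 counts. Dashed lines give the median of 16 fibroblast markers in each batch, and in BMS493 and co-culture most members lie between 1% and 15%, while with transwell and alone all but Cald1 lie under 1%.

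Around the contractile genes, the lists moved less in macrophages. Of the other actomyosin genes 35 of 38 were tested and 2 rose in co-culture over alone. Cnn3, a calponin of non-muscle cells, averaged 27.4 ± 5.35 CPM in co-culture and 3.37 ± 1.59 CPM alone (log2 fold change 2.99, adjusted p = 0.0404), and Smtn, which encodes smoothelin, 8.11 ± 4.39 and 1.61 ± 0.519 CPM (log2 fold change 2.30, adjusted p = 0.0317). In BMS493 over alone 3 rose, namely Cnn3 (log2 fold change 3.40), Smtn (2.76) and Csrp1, a LIM protein of smooth muscle (1.82). Of 19 tested regulators 1 rose in co-culture, Gata6, a transcription factor of smooth muscle that is also the lineage factor of cavity macrophages, with 55.3 ± 23.1 CPM in co-culture and 5.47 ± 1.89 CPM alone (adjusted p = 0.0127). Gata6 also rose with ATRA, to 77 ± 27.6 CPM (adjusted p = 0.00509), and was lower with BMS493 than in co-culture (log2 fold change -3.43, adjusted p = 0.00569), a pattern that no contractile member showed by the same calls. Of 33 tested TGF-beta response genes 5 rose in co-culture and 6 with BMS493, among them Sparc, a matrix glycoprotein (186 ± 159 CPM in co-culture and 4.35 ± 2.32 CPM alone, adjusted p = 0.0237), and Ccn1, a matricellular protein (14.8 ± 5.92 and 0.64 ± 0.136 CPM, adjusted p = 0.0222). Col1a1, Col1a2 and Col3a1 stand both in that list and among the fibroblast markers.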

How the data were processed

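Polyadenylated RNA of sorted cells was sequenced and aligned with GSNAP to GRCm38, per the submitters' processing notes. The deposited files hold read counts per gene model and, per the file headers, RPKM that the authors adjusted by size factors (nRPKM). For strand use, trimming and tool versions no source used here gives a statement. Symbols were matched by Ensembl identifier to a reference table, and rows without one (192 of 50764, 0.0358% of counts) stayed in the fits. Counts were tested with edgeR 4.0.16 in R 4.3.3 (filterByExpr, TMM, quasi-likelihood test on group, Benjamini-Hochberg over all genes, adjusted p under 0.05), in 1 fit of 12 PDPN+ libraries (19134 genes), 1 of 18 macrophage libraries (17774) and 1 of all 30 (20987). CPM use TMM over all 30. DESeq2 1.42.0 was an alternative. Fits were tested on simulated data.

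Groups follow titles and characteristics. Same-numbered libraries share a labelled batch. Their deviations from the group means correlated at a median of 0.209 over 18 PDPN+ pairs and 0.307 over 45 macrophage pairs, and a batch block was an alternative. Members and lists (listed genes named when called, up to 6 per comparison, from 10 CPM) were chosen with earlier results of these data known. Endothelial, B and T cell lists were also summed.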

Additional observations from a re-analysis of the deposited data

Results flagged for a closer look

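For several contractile genes the log2 fold change over culture alone was larger in the macrophage libraries than in the PDPN+ libraries. The starting levels were far lower in macrophages. Mean Acta2 was 6.66 CPM alone and 141 in co-culture in macrophages, against 1948 and 4095 CPM in PDPN+ cells. The difference of log2 fold changes, macrophages minus PDPN+ cells, was tested in the edgeR fit of all 30 libraries, a test chosen after seeing the data. For co-culture over alone, where 0.481% of genes were called higher, it was 3.32 for Acta2 (adjusted p = 0.00676), 4.0 for Tagln (0.00411), 5.73 for Myl9 (0.0017), 4.31 for Tpm2 (0.00268) and 4.39 for Des (0.0344). For BMS493 over alone, where 1.09% of genes were called higher, it was 3.95 for Acta2 (adjusted p = 0.000927), 4.76 for Tagln (0.000566), 6.70 for Myl9 (0.000231), 5.06 for Cnn1 (0.024), 4.95 for Tpm2 (0.000428) and 4.97 for Des (0.0105). Myh11 was called there too, at 9.09 (0.025), a fitted value that depends on the prior count because Myh11 had 0 counts in macrophages alone. Cald1 was not called in either, at -0.27 (adjusted p = 0.962) and -0.22 (0.965). The macrophage levels averaged 0.297 to 6.66 CPM alone for the called genes other than Myh11, and fibroblast markers moved beside them as given above. Their part was not tested.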

How the results depend on the processing

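No member was called in any PDPN+ comparison under any setting tried, and all 10 were called in PDPN+ over macrophage culture alone under all. The count over all genes in PDPN+ co-culture over alone did depend on the fit, at 0 with edgeR, 347 with DESeq2's Wald test, 31 without the low count filter and 34 in a fit of the 2 groups alone. Macrophage co-culture over transwell had 4 called members as reported, 7 with the replicate block, 9 with DESeq2's Wald test, 7 without the filter, 1 without batch mbb340, 0 in the fit of the 2 groups alone, and between 0 and 5 with 1 library left out. Macrophage co-culture over alone had 7 as reported, 0 in the fit of the 2 groups alone, and between 1 and 7 with 1 library left out. BMS493 over alone had 6 as reported and between 2 and 7 with 1 library left out. Alone over ex vivo had 3 as reported, 5 with DESeq2's Wald test, and between 1 and 3 with 1 library left out. In macrophages with 1 library left out, 0 to 14 genes in all were called in co-culture over transwell and 5 to 268 in co-culture over alone. The range was 12 to 243 in BMS493 over alone and 2107 to 2984 in alone over ex vivo. Macrophage counts over all genes are not given here for the replicate block, DESeq2's Wald test, the unfiltered fit or the fit without batch mbb340. The cause was not tested.

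The replicate block pairs libraries by labelled batch. It gave 8 called members in macrophage co-culture over alone and 8 in BMS493 over alone, adding Actg2 to the first (adjusted p = 0.0218) and Actg2 and Des to the second (0.019 each), and added Cnn1 in alone over ex vivo (0.0463). It changed no call in PDPN+ cells. Values of single genes were recounted only in both co-culture over alone comparisons, or where the main fit gave an unadjusted p under 0.05. Most fold changes of uncertain sign were thus left out beforehand. Of these 766 recomputed values, 672 kept direction and side of the threshold, 62 lost the call, 32 gained one and 0 reversed. Without that selection, of 130 fold changes 42 took another sign under some setting, 0 of them called in any. In macrophages Lmod1 rests on 66 counts in co-culture and Myh11 on 417, which limits their precision.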
